A study of Drosophila melanogaster with 42 samples.

Results

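The ERR mutant was compared with its control at WPP, the earliest stage of a time course of whole Drosophila melanogaster RNA. The comparison rests on 6 of 42 samples, 3 of the mutant and 3 of the control, chosen by their genotype and time point labels. The other 36 samples, 3 of each genotype at P1, P2, P3, P4, A1 and A6, shared in the fit and in the comparison between stages. WPP commonly stands for white prepupa, the animal at the onset of metamorphosis, although the labels do not spell it out. Animals of both genotypes had been heated on days 4 and 5 after egg laying (AEL), and the genotypes differed in whether they carried hsFLP, a transgene of the FLP recombinase under a heat shock promoter. The sources used here do not give the mutant allele of ERR, the genetic background, the sex of the animals or the number pooled per sample, so the effects of ERR, of the transgene and of the background cannot be told apart. The labels also do not say whether the 3 samples of a group were separate collections of animals, so p-values here rest on the spread between samples of a group, pooled over the 14 groups of the fit, and that spread may be technical. In such bulk RNA, fewer cells of a type and less RNA per cell cannot be told apart.

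ERR is the only estrogen-related receptor of the fly, an orphan nuclear receptor that binds DNA and is known in Drosophila as an activator of genes for sugar breakdown. Glycolysis splits glucose into pyruvate and yields ATP and building blocks for growth. Glycogen is the branched glucose store from which sugar phosphate can be fed into the same pathway. At the end of larval life feeding stops, and the animal lives on stored reserves while larval tissues are broken down and adult ones are built.

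Deposited counts totalled 7156089, 6311048 and 5751698 in the mutant samples and 7737140, 6856775 and 6145264 in the control samples, within a range of 4308848 to 7737140 over all 42. Levels are CPM, with each count divided by the TMM-scaled size of its library, and a gene is called when the adjusted p of edgeR's quasi-likelihood test over 13672 genes lies under 0.05. Fat body proteins were the most abundant of the tissue markers, with Fbp1, a receptor for larval storage proteins, at 47364.6 to 56123.5 CPM in mutant and 46685.4 to 50624.1 CPM in control samples. Neither it nor the storage protein gene Lsp2 was called. Control sample 2 stood apart in several developmental gene groups and in many called genes, and mutant sample 2 was low in testis genes. Their values stand beside the results they touch. On the first principal component of the 6 samples (33.9% of the variance) mutant sample 2 lay at -36.0, and the 5 others lay between 0.0203 and 12.3.

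At WPP 89 genes were called, 0.651% of those tested. In the mutant, 28 genes were higher (0.205%) and 61 lower (0.446%). The call reached 2-fold for 11 of the higher and 36 of the lower genes. Mutant and control samples did not overlap for any of the 28 higher genes and for 60 of the 61 lower ones, the exception being CG10621. Across all tested genes 1755 (12.8%) showed no overlap, and 871 had an unadjusted p under 0.05. The median log2 fold change over all tested genes was -0.009. Glycolysis and glycogen enzymes made up 16 of the 61 lower genes, and of 39 gene lists examined 29 held no called gene. With 0.651% of all tested genes called, a short list without a call does not show that its genes were unchanged. Among the controls, sample 2 lay farthest from the mutants for 37 of the 61 lower and 17 of the 28 higher genes. Among the mutants, sample 3 lay farthest from the controls for 37 lower genes and sample 2 for 16 higher ones. Without control sample 2 the number of calls was 46 (13 higher, 33 lower), of which 45 were among the 89. With the 6 WPP samples fitted alone there were 61 calls (19 higher, 42 lower), and 43 of the 89 were among them, 11 higher and 32 lower. Without mutant sample 2 there were 13 higher genes, and without mutant sample 3 there were 38 lower ones.

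**Figure D1:**
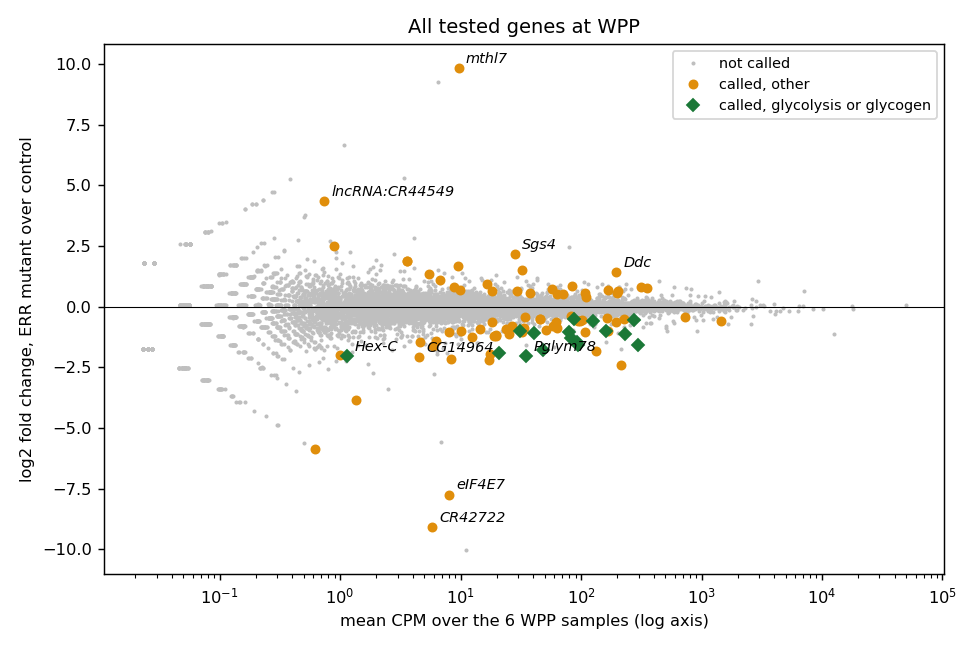
Each point is 1 of 13672 tested genes, with the mean CPM of the 6 WPP samples on a log axis across and the log2 fold change of ERR mutant over control up the page. Grey points were not called, orange circles are other called genes, and the 16 green diamonds, called glycolysis and glycogen genes, lie below 0.

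The ERR transcript was still measured in the mutant at this stage. ERR (FBgn0035849) lies on the minus strand of chromosome 3L from 8183361 to 8186671 in the dm6 build. It had 12.6, 10.6 and 11.1 CPM in mutant samples, against 16.2, 20.8 and 14.5 CPM in control samples. The groups did not overlap, but the log2 difference of -0.59 ± 0.18 (SE) was not called (adjusted p = 0.176), and it was not called under any of the 13 alternative settings either (adjusted p from 0.0593 to 0.952). Counts over the whole gene do not show whether the remaining RNA encodes a working receptor. At A6, the last stage of the course, the mutant mean was 5.46 CPM against 35.6 CPM in the control.

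A pair of neighbouring genes were called. The gene mthl7, a member of the Methuselah-like family of G protein-coupled receptors, had 21.4, 19.7 and 16.7 CPM in mutants and no count in the 3 control samples. With the control set at 3 counts over the group, mthl7 was at least 127.4-fold higher in the mutant (adjusted p = 3.9e-13, edgeR). The gene mthl7 spans 8178675 to 8180514 on the minus strand of 3L, downstream of ERR. It was called higher in the mutant at each of the 6 later stages too, and no other tested member of its family was called at WPP. Between them lies Uxs (8180923 to 8183369 on the plus strand), which makes UDP-xylose from UDP-glucuronate. Its level was 1.98, 2.91 and 3.74 CPM in mutants and 8.80, 11.8 and 5.93 CPM in controls, a log2 change of -1.63 ± 0.29 (adjusted p = 0.0019), not called with the 6 WPP samples alone (adjusted p = 0.106). Uxs and ERR overlap at their ends on opposite strands, and the sources used here do not state the strand setting of the authors' counting, so a few reads could belong to either. The next genes on each side, Nmt (55.8 ± 1.75 CPM in mutants, 52.9 ± 6.20 in controls; SD, n = 3 each) and Atg18a (104.9 ± 10.6 and 97.7 ± 3.95 CPM in the same order), were not called. Both lay within 0.10 log2 units of no difference.

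All 12 glycolysis genes on the list were called lower in the mutant, where 0.446% of all tested genes were, and their median log2 fold change was -1.21, beside -0.009 over all tested genes. The members ranged from -2.05 to -0.50. Their summed level was 1026.4, 1063.2 and 936.9 CPM in the mutant samples, against 2112.3, 2268.4 and 1965.8 CPM in the control samples, and the groups lay far apart relative to their spread. The pathway is named in the title of the series and the list was drawn up with earlier results known, so its direction is not independent evidence.

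In the upper, ATP-consuming steps, Hex-A, the main hexokinase that traps glucose as its phosphate, was uniform within each genotype. It had 72.3, 72.5 and 72.0 CPM in mutants and 99.2, 109.9 and 97.8 CPM in controls, the smallest change of the pathway (log2 -0.50 ± 0.092, adjusted p = 0.00225). The hexokinase gene Hex-C was scarce, with 0.424, 0.684 and 0.170 CPM in mutants and 0.825, 2.91 and 1.81 CPM in controls. That is 8 counts in the mutant group against 36 in the control group, and the call was lost without any 1 of mutant samples 1 and 3 and control samples 2 and 3. Pgi, which turns glucose 6-phosphate into fructose 6-phosphate, had 54.5, 43.6 and 57.3 CPM in mutants and 102.1, 115.9 and 101.9 CPM in controls (log2 -1.04). Pfk, the phosphofructokinase whose step commits sugar to glycolysis, had 55.3, 32.5 and 55.0 CPM in mutants and 113.1, 130.3 and 108.8 CPM in controls. Its log2 change was -1.30 ± 0.26 (adjusted p = 0.00707), and mutant sample 2 was the lowest. The call of Pfk was lost without that sample or without control sample 2 (highest adjusted p = 0.102). Ald, the aldolase that cuts the sugar into 2 trioses, was 117.5, 109.8 and 93.4 CPM in mutants and 218.2, 219.5 and 208.4 CPM in controls (log2 -1.01 ± 0.13). Tpi, which interconverts the trioses, had 48.1, 41.7 and 50.7 CPM in mutants and 139.9, 152.4 and 130.2 CPM in controls (log2 -1.59 ± 0.21, adjusted p = 1.4e-05).

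Among the lower, ATP-yielding steps the phosphoglycerate mutase gene Pglym78 fell the most. Its level was 15.6, 13.3 and 12.1 CPM in mutants, against 52.9, 65.1 and 51.7 CPM in controls, 4.13-fold lower (log2 -2.05 ± 0.14, adjusted p = 2.1e-11). Pgk, the phosphoglycerate kinase that makes the first ATP of the pathway, had 50.8, 52.5 and 46.6 CPM in mutants and 133.2, 147.9 and 124.6 CPM in controls (log2 -1.44 ± 0.10). Eno, the enolase, had 137.8, 160.4 and 142.2 CPM in mutants and 336.7, 321.1 and 295.5 CPM in controls. The groups were far apart for both genes relative to their spread. PyK, the pyruvate kinase of the last step, changed less, with 101.6, 105.7 and 90.2 CPM in mutants and 158.5, 156.8 and 138.1 CPM in controls (log2 -0.61 ± 0.11, adjusted p = 0.00221).

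The 2 genes for glyceraldehyde 3-phosphate dehydrogenase, Gapdh1 and Gapdh2, fell by different amounts. Gapdh2 had 146.8, 164.2 and 138.8 CPM in mutants and 420.8, 528.7 and 389.8 CPM in controls (log2 -1.57 ± 0.13, adjusted p = 3.5e-10). Gapdh1 had 225.8, 266.1 and 178.5 CPM in mutants and 337.0, 317.9 and 317.1 CPM in controls (log2 -0.54 ± 0.12, adjusted p = 0.0168). Per length, on the deposited FPKM scale, the level of Gapdh2 was 0.625, 0.591 and 0.746 times that of Gapdh1 in the mutant samples and 1.2, 1.6 and 1.18 times in the control samples, so the more abundant of the pair was Gapdh1 in each mutant and Gapdh2 in each control. The Gapdh1 call was lost in 5 of 13 alternatives, among them without control sample 2 (highest adjusted p = 0.195), while Gapdh2 was called in each.

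**Figure D2:**
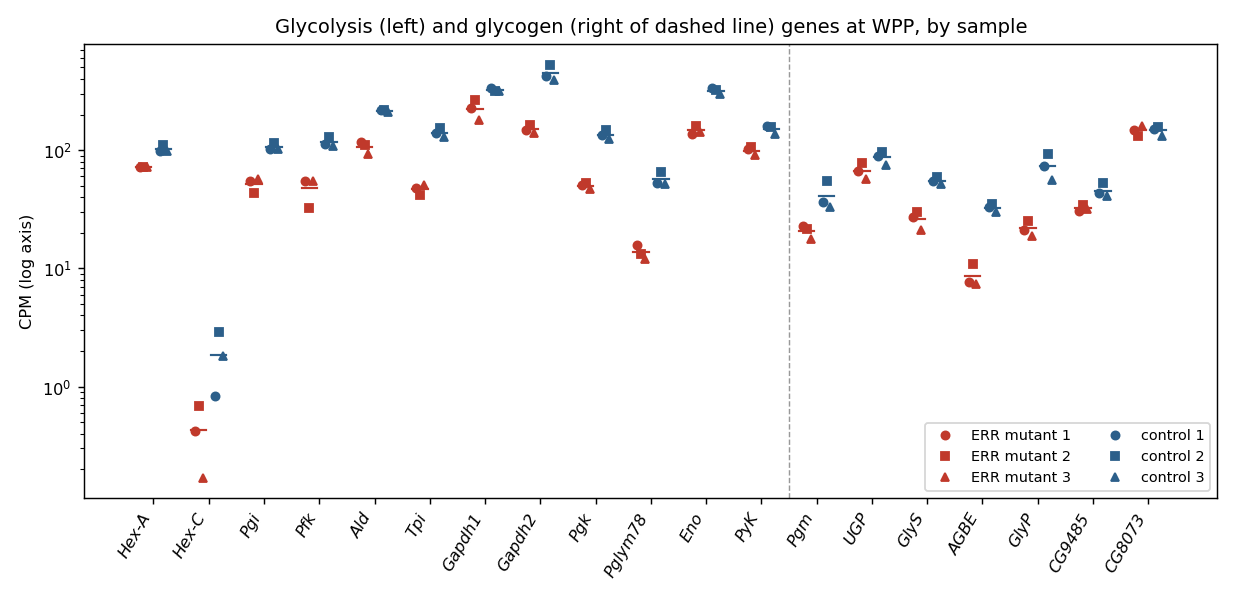
CPM on a log axis for the 12 glycolysis genes in pathway order and, right of the dashed line, the 7 glycogen genes, with the 3 mutant samples in red left of the 3 control samples in blue and a bar at each group mean. Red points lie under blue ones for each glycolysis gene and for Pgm, GlyS, AGBE, GlyP and CG9485, while those of UGP and CG8073 overlap.

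Copies of glycolysis enzymes expressed in testis were examined beside them. None of 11 such paralogs was called, and their median log2 fold change was -0.13. Their summed level was 224.8, 145.7 and 239.2 CPM in mutants and 204.8, 244.9 and 249.9 CPM in controls, low in mutant sample 2 alone. The same sample was low in the list of 27 testis genes, at 1269.5 CPM, against 2239.7 and 2439.0 CPM in the other mutants and 1946.3 to 2284.5 CPM in controls. No testis gene was called.

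Glycogen genes fell for both making and breaking the polymer. Of 7 members 4 were called lower and none higher, where 0.446% of all tested genes were called lower. Their median log2 fold change was -0.99, beside -0.009 over all tested genes. This list too was drawn up with earlier results known, so its direction is not independent evidence. AGBE, the branching enzyme, had 7.64, 10.9 and 7.32 CPM in mutants and 33.3, 34.8 and 30 CPM in controls (log2 -1.92 ± 0.19, adjusted p = 2.0e-08). GlyS, the synthase that lengthens the chains, had 27.3, 29.9 and 21.1 CPM in mutants and 54.8, 59.2 and 51.4 CPM in controls (log2 -1.08 ± 0.15). Transcripts of the synthase and the branching enzyme were thus lower without overlap of the groups. GlyP, the phosphorylase that releases glucose 1-phosphate, had 21.2, 25.1 and 18.9 CPM in mutants and 73.5, 93.0 and 55.8 CPM in controls (log2 -1.77 ± 0.19, adjusted p = 2.2e-07). Pgm, which joins glucose 1-phosphate to glycolysis, had 22.8, 21.4 and 17.7 CPM in mutants and 36.1, 54.3 and 32.9 CPM in controls (log2 -0.99 ± 0.15). It overlaps Strump on the other strand. The 3 others were not called: UGP, which makes UDP-glucose, differed by -0.37 (adjusted p = 0.287), CG9485 by -0.50 (adjusted p = 0.305) and CG8073 by 0.00. A called gene outside the list, Gbs-76A, which encodes a subunit that targets protein phosphatase 1 to glycogen, had 21.1, 21.9 and 15.3 CPM in mutants and 30.6, 39.4 and 32.4 CPM in controls (log2 -0.81, adjusted p = 0.0101). The call of Gbs-76A was lost without mutant sample 3, without control sample 2 and with the 6 WPP samples alone (highest adjusted p = 0.138), and that of Pgm with the 6 alone (adjusted p = 0.107).

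The pathways that branch from glycolysis showed few or no calls at this stage. None of 8 pentose phosphate genes (median log2 fold change -0.08), 7 trehalose genes (0.08), 5 gluconeogenesis genes (0.16), 22 genes of pyruvate entry and the TCA cycle (-0.02) and 79 nuclear genes of oxidative phosphorylation (-0.03) was called. Over all tested genes 0.651% were called, so the lack of calls in such short lists does not set these pathways apart. Taldo, the transaldolase of the pentose phosphate pathway, had 61.5, 77.8 and 69.9 CPM in mutants and 72.4, 69.9 and 65.4 CPM in controls. Ldh, the lactate dehydrogenase that restores NAD, had 21.4, 22.9 and 15 CPM in mutants and 26.9, 35.4 and 31.3 CPM in controls. The groups did not overlap for Ldh, yet it was not called (log2 -0.66, adjusted p = 0.6). Adh, the alcohol dehydrogenase, also lay lower without overlap and was not called (log2 -0.98, adjusted p = 0.0765). Neither the 18 genes of fatty acid and triglyceride synthesis (median -0.02) nor the 18 of lipid release and fatty acid oxidation (-0.02) held a call. Got2, the mitochondrial aspartate aminotransferase of the malate-aspartate shuttle, was called, at 154.3, 169.3 and 136.3 CPM in mutants and 224.7, 272.4 and 222.2 CPM in controls (log2 -0.65 ± 0.11, adjusted p = 0.00112).

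Of 14 genes for digesting starch and sugar, 1 was called lower, Mal-A7, a maltase. It had 4.67, 3.08 and 2.38 CPM in mutants and 10.2, 9.81 and 7.41 CPM in controls (log2 -1.41). The median of the list was -0.79, with 10 members below 0 and 4 above, and the amylase gene Amy-p (log2 -1.24, adjusted p = 0.211) and the maltase gene Mal-A8 (log2 -0.91, adjusted p = 0.156) did not pass. Nearly silent members enter that median, such as Mal-B1 with 0 counts in mutants and 2 in controls (log2 -2.52). The most abundant member, Mal-A5, differed by -0.12. Summed levels of the list overlapped, with 628.2 CPM in mutant sample 2 and 620.0 CPM in control sample 3. The midgut protease gene Jon44E was called lower, at 2.12, 5.30 and 1.70 CPM in mutants and 9.48, 17 and 14.2 CPM in controls. It was the only call among 33 tested midgut digestion genes (median log2 fold change -0.10). The call of Mal-A7 was lost in 5 of 13 alternatives (highest adjusted p = 0.145). These were the 6 WPP samples alone and leaving out mutant sample 2 or 3 or control sample 1 or 2. That of Jon44E was lost in 4 (highest adjusted p = 0.137), the 6 alone and leaving out mutant sample 1 or 3 or control sample 2.

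Transcripts of the mitochondrial genome summed to a lower level in the mutant, without a call. Their sum was 4578.6, 4781.5 and 4584.8 CPM in mutants and 10587.0, 6893.8 and 6278.1 CPM in controls, with no overlap, and control sample 1 was the highest. Of 12 tested genes 11 had a log2 fold change below 0, with a median of -0.71. The groups overlapped for mt:ND2, mt:ND4L, mt:ND6 and mt:ATPase6. Later stages did not keep 1 direction. At P2 mt:CoII was called higher in the mutant (log2 0.93), and mt:ND4L (-2.08) and mt:ND6 (-1.37) were called lower. At A1 mt:ND1 was called lower (-1.14). The lowest p was that of mt:CoII, a core subunit of cytochrome oxidase, at 587.9, 640.7 and 601.4 CPM in mutants and 1486.9, 1172.6 and 1020.8 CPM in controls (log2 -1.01, adjusted p = 0.142). Nuclear genes for mitochondrial ribosomal proteins had a median of -0.05, with 0 of 73 called.

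Outside carbohydrate metabolism the deepest falls were in genes nearly silent in the mutant. The X-linked gene eIF4E7, a cap-binding translation initiation factor of the eIF4E family, had 0, 0 and 0.170 CPM in mutants, against 14.6, 16.4 and 17 CPM in controls. This was 1 count against 316, a ratio of 298.8 with an exact 95% counting interval of 53.2 to 11838.2, and eIF4E7 was called lower at each of the 6 later stages as well. None of the 6 other eIF4E family genes was called. CG12661, also on the X, had no count in mutants and 24 counts in controls, and was at least 7.71-fold lower with the mutant group set at 3 counts. The noncoding CR42722 had no count in mutants and 12.1, 6.44 and 16.3 CPM in controls, at least 72.7-fold lower (adjusted p = 0.0141). Its call was lost without any 1 of the mutant samples, and at P2 it was called in the opposite direction.

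A pair of genes outside the call showed the same pattern of presence in 1 genotype. Prosalpha1, a proteasome subunit, had no count in mutants and 37.1, 7.05 and 22.1 CPM in controls (adjusted p = 0.406), and CG32500 had 20.2, 6.16 and 12.2 CPM in mutants and no count in controls (adjusted p = 0.210). Neither kept that direction along the course: at P2 the means of Prosalpha1 were 14.1 CPM in mutants and 2.25 CPM in controls, and at P3 those of CG32500 were 5.44 CPM in mutants and 18.6 CPM in controls. Their log2 differences at WPP were imprecise, at -10.03 ± 3.69 for Prosalpha1 and 9.26 ± 2.90 for CG32500, so neither gene is shown to be absent from a genotype. Both were singled out after their values were seen.

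Other lower genes spanned several functions. The noncoding gene lncRNA:CR43428 was the most abundant of the strongly lower ones, with 39.6, 100.4 and 67.4 CPM in mutants and 284.7, 559.0 and 246.8 CPM in controls (log2 -2.40 ± 0.29, adjusted p = 3.2e-06). CG14964 had 1.56, 1.88 and 1.70 CPM in mutants and 8.38, 5.98 and 7.57 CPM in controls (log2 -2.09 ± 0.20, adjusted p = 1.2e-08). The 12 largest falls were taken from called genes with a mean of at least 5 CPM in a genotype and no overlap. Besides those given above, they included CG10175 (log2 -2.21), CG32640 (-1.96) and CG13962 (-1.83). The call of CG13962 was lost in 5 of 13 alternatives, among them without any 1 of the mutant samples (highest adjusted p = 0.379), and that of CG10175 with the 6 WPP samples alone (adjusted p = 0.154). LManI, a lysosomal alpha-mannosidase, had 114.7, 125.0 and 91.7 CPM in mutants and 242.6, 245.4 and 184.5 CPM in controls. Ubi-p5E, which encodes polyubiquitin, was the most abundant lower gene, at 1072.4, 1290.9 and 1131.0 CPM in mutants and 1879.8, 1874.9 and 1534.6 CPM in controls (log2 -0.60). Appl, the fly amyloid precursor protein gene, had 79.4, 89.3 and 76.2 CPM in mutants and 126.6, 117.0 and 120.8 CPM in controls (log2 -0.57 ± 0.11, adjusted p = 0.00253). Gss1 and Gss2, glutathione synthetases, held the same count in each of the 42 samples and count as 1 measurement (log2 -0.49, adjusted p = 0.00311). The call of LManI was lost without mutant sample 3 (adjusted p = 0.0655), that of Ubi-p5E without mutant sample 1, without control sample 2 and with the 6 WPP samples alone (highest adjusted p = 0.0716), and that of the Gss pair with the 6 alone (adjusted p = 0.0963).

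Among the higher genes GstT3, a theta-class glutathione S-transferase, had the smallest adjusted p after mthl7. It had 47.2, 54.2 and 42.7 CPM in mutants, against 17.3, 17.8 and 15.6 CPM in controls (log2 1.5 ± 0.16, adjusted p = 2.7e-07), and was the only call among 36 glutathione S-transferases. Thor, the fly 4E-BP that binds the cap-binding factor eIF4E1 and restrains translation, had 441.9, 494.8 and 396.4 CPM in mutants and 287.1, 239.1 and 251.1 CPM in controls. Its log2 change was 0.78 ± 0.16 (adjusted p = 0.00751), lost without mutant sample 2 or control sample 2 (highest adjusted p = 0.095). Thor was the only call among 27 tested regulators of metabolism.

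Rim2, a mitochondrial carrier of pyrimidine nucleotides, had 79.9, 83.8 and 89.3 CPM in mutants and 60.3, 53.2 and 61.7 CPM in controls (log2 0.53 ± 0.10). Its gene lies 380 bp from Eno on chromosome 2L, and the neighbours were called in opposite directions. GstT3 and CG32506, 390 bp apart on the X, were likewise called in opposite directions (log2 1.5 and -1.2). The proline dehydrogenase gene slgA had 224.8, 268.7 and 209.6 CPM in mutants and 174.5, 133.8 and 170.5 CPM in controls. The gene rictor, whose product is a subunit of TOR complex 2, had 77.8, 71.7 and 73.3 CPM in mutants and 51.5, 51.8 and 54.7 CPM in controls. The differences of slgA (log2 0.55) and rictor (0.50) were called. The call of slgA was lost without mutant sample 2, without control sample 2 and with the 6 WPP samples alone (highest adjusted p = 0.154). That of rictor was lost without any 1 of the mutant samples or of control samples 1 and 2 (highest adjusted p = 0.138).

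Kmn1, a kinetochore subunit gene on the X, had 15.8, 14.4 and 13.6 CPM in mutants and 5.77, 4.6 and 3.29 CPM in controls (log2 1.67 ± 0.26). It overlaps CG11699 on the other strand, which was called higher as well (log2 0.65), and the 2 cannot be fully told apart. The genes CG17325 and CG42305 share their position and every count, so they too are 1 measurement, with 5.66, 5.82 and 5.44 CPM in mutants and 1.37, 1.53 and 1.65 CPM in controls. The X-linked CG17778 had 8.35, 6.67 and 8.68 CPM in mutants and 2.89, 3.22 and 3.29 CPM in controls (log2 1.33).

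Genes tied to the stage of the animal gave calls that moved with single samples. Ddc, the dopa decarboxylase that supplies dopamine for hardening and tanning the puparium, had 283.8, 381.9 and 192.6 CPM in mutants and 139.6, 52.6 and 129.6 CPM in controls. Its log2 change was 1.41 ± 0.27 (adjusted p = 0.00315), the only call among 13 tanning and pigment genes. It was lost without mutant sample 2 or with the 6 WPP samples fitted alone (highest adjusted p = 0.220). The tyrosine hydroxylase gene ple had 8422.4, 9940.6 and 7701.0 CPM in mutants and 7480.1, 2777.5 and 6628.7 CPM in controls, without overlap and without a call. The gene e, ebony, whose product joins dopamine to beta-alanine, had 3984.1, 4642.7 and 3217.3 CPM in mutants and 2668.8, 385.6 and 2680.7 CPM in controls (adjusted p = 0.430). Control sample 2 was thus the lowest for each of these enzymes, and the whole list summed to 5429.7 CPM there, against 14635.1 to 18875.1 CPM in the mutant samples and 12659.0 and 13838.8 CPM in the other controls. The part of this sample in the result was not tested beyond leaving it out.

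Sgs4, a glue protein of the larval salivary gland that fixes the puparium to its surface, had 49.2, 62.4 and 27.4 CPM in mutants and 11, 5.98 and 14.2 CPM in controls (log2 2.16 ± 0.40, adjusted p = 0.00759). It was the only call among 5 tested glue genes, of which Sgs3 lay the other way (log2 -0.25). The 6 listed glue genes, with the untested Sgs1, summed to 160.0, 260.8 and 104.1 CPM in mutants and 80.0, 52.0 and 95.2 CPM in controls. In that sum mutant sample 2 was the highest and control sample 2 the lowest, and the Sgs4 call was lost without either of them and with DESeq2. Sgs4 lies within dnc on the same strand. In the Eig71E cluster of late larval and prepupal genes the sums lay the other way, at 4035.3, 4825.3 and 4404.1 CPM in mutants and 4912.2, 8026.2 and 5769.2 CPM in controls, control sample 2 again being the extreme. None of its 11 genes was called. None of 20 genes of the ecdysone cascade was called either, and their median log2 fold change was -0.04. The gene br, which encodes the broad transcription factors of the cascade, had 1311.3, 1432.0 and 1108.9 CPM in mutants and 1407.0, 1231.0 and 1348.1 CPM in controls.

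The heat shock list, examined because all animals had been heated, held no call among 26 tested genes (median log2 fold change -0.11, 22 of them below 0). Hsp70Ab, an inducible chaperone gene, had 17.5, 15.6 and 19.2 CPM in mutants and 37.4, 91.5 and 26.2 CPM in controls, without overlap (adjusted p = 0.811). Of 20 muscle genes none was called and 16 lay above 0 (median 0.38). Nor was any of 10 neuronal, 12 haemocyte, 23 cell division, 88 cytosolic ribosomal protein or 79 cytochrome P450 genes called. The share called over all tested genes was 0.651%, so lists of these sizes would hold few calls or none in any case.

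**Figure D3:**
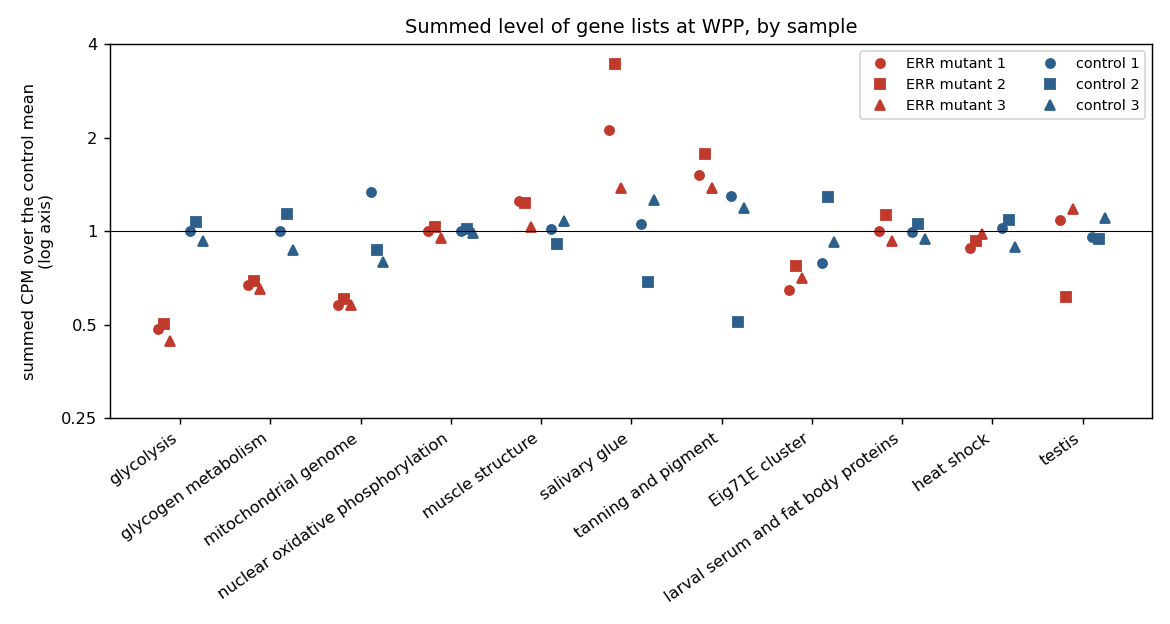
Summed CPM of 11 gene lists in each WPP sample, divided by the mean of the 3 control samples, on a log axis, with mutant samples in red left of control samples in blue and a line at 1. Mutant sums lie under all control sums for glycolysis, glycogen, mitochondrial genome and Eig71E genes and above them for glue and tanning genes. Control sample 2 is the control farthest from the mutants for glycolysis, glycogen, Eig71E, glue and tanning genes, and mutant sample 2 is low for testis genes.

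Called genes were spread over the chromosomes unevenly. The X held 27 of its 2094 tested genes among the calls (1.29%), against 23 on 2L (0.894%), 15 on 2R (0.550%), 10 on 3L (0.375%), 12 on 3R (0.354%) and 1 on chromosome 4 (1.05% of its 95 tested genes). On the X 10 genes were higher and 17 lower. Without control sample 2 the X held 17 of the 46 calls, beside 27 of 89 with all samples. The median log2 fold change of X-linked genes was -0.00601, beside -0.009 over all genes. Hex-A and Gapdh2 are on the X, and the other glycolysis genes on 2L, 2R and 3R. No test of the shares was made.

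Calls at WPP were set beside those at the 6 later stages, which share no sample with WPP. Of the 61 lower genes 26 were also lower at P1, 33 at P2, 21 at P3, 16 at P4, 33 at A1 and 29 at A6. The lower calls at those stages made up 0.629%, 8.79%, 0.271%, 0.402%, 1.97% and 5.28% of tested genes in the same order. As a share of the lists of each stage, the genes shared with WPP were 30.2% at P1, 2.75% at P2, 56.8% at P3, 29.1% at P4, 12.2% at A1 and 4.02% at A6. Of the 28 higher genes 8, 5, 5, 6, 9 and 9 were also higher from P1 to A6, where higher calls made up 0.168%, 2.78%, 0.176%, 0.453%, 0.929% and 6.14% of tested genes. The shared ones were 34.8%, 1.32%, 20.8%, 9.68%, 7.09% and 1.07% of those lists. Some WPP calls were opposite at another stage. Of the lower genes 1 was called higher at P2, 1 at P4, 1 at A1 and 4 at A6, and of the higher genes 1 was called lower at P1 and 3 at P2.

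Called lower at all 7 stages were Ald, Eno, Gapdh1, Gapdh2, Pgi, Pgk, Pglym78, Tpi, Pgm, eIF4E7 and CG14024, so 8 of the 12 glycolysis genes are among the 11 genes with that pattern. The glycolysis genes with fewer later calls were Pfk (5 later stages), PyK (3), Hex-A (1) and Hex-C (0). AGBE and GlyS were called lower at 5 later stages and GlyP at 4. The 2 genes called higher at all 7 stages were mthl7 and Kmn1. At the other end 17 lower and 15 higher genes were called in that direction at WPP alone, among them LManI, Timp and Mal-A7 on the lower side and Ddc, Sgs4, Nep1 and CAH1, a carbonic anhydrase gene, on the higher side. Of 13 alternatives the call of Timp was lost in 7 (highest adjusted p = 0.574), that of CAH1 in 3 (0.321) and that of Nep1 in 2 (0.179). A call at 1 stage and none at another does not show that the stages differ, which was tested separately.

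The difference at WPP was tested against the mean of the differences at the 6 later stages for each gene. It passed for 45 genes (0.329% of those tested, 927 with an unadjusted p under 0.05), 30 with a more positive difference at WPP and 15 with a more negative one. Of the 89 called genes 21 were among them, 11 higher and 10 lower at WPP. Without control sample 2 the test passed for 22 genes.

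Several carbohydrate genes had a smaller reduction at WPP than in the mean of the later stages. Gapdh1 differed by -0.54 at WPP and by -0.83, -1.98, -1.83, -1.69, -1.95 and -1.61 from P1 to A6, and its WPP difference was 1.11 ± 0.13 above the mean of those (adjusted p = 5.6e-06). Pgm differed by -0.99 at WPP and by -1.09 to -2.62 later, 1.06 ± 0.16 above the later mean (adjusted p = 3.5e-04). In controls Gapdh1 averaged 324.0 CPM at WPP and 948.8 CPM at A6, and Pgm 41.1 and 255.5 CPM. UGP was not called at WPP (-0.37) or at P1 (-0.30) but was lower from P2 on, and at A6 its log2 fold change was -2.08, so its WPP difference lay 0.92 ± 0.14 above the later mean (adjusted p = 3.5e-04). Taldo differed by 0.01 at WPP, 1.06 ± 0.16 above the later mean (adjusted p = 5.4e-04). It was called lower at P2 (-1.12), P4 (-0.61), A1 (-2.34) and A6 (-1.93) and not at P1 (-0.18) or P3 (-0.11). Pepck1, the cytosolic enzyme of gluconeogenesis, differed by 0.35 at WPP and by -5.29 at A6 (1.28 ± 0.20 above the later mean). That later mean rests on A6, since the values from P1 to A1 lay between -0.29 and 0.10 and none was called. Its counts are identical to those of CG45087.

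GlyP showed the other direction. Its WPP log2 fold change of -1.77 was its lowest of the course, against -0.35 to -1.09 at later stages, 1 of 15 genes with a more negative difference at WPP (-1.0 ± 0.20 against the later mean, adjusted p = 0.0111). CG14964 differed by -2.09 at WPP, by -0.96 at P2, where it was also called lower (adjusted p = 1.4e-06), and by 1.10 at A6, where it was called higher (-2.14 ± 0.20 against the later mean, adjusted p = 1.2e-07). Ddc had its 1 called difference at WPP, and later values of -0.23 to 0.29 (1.35 ± 0.29 above the later mean, adjusted p = 0.0265). GstT3 was higher at WPP than later too (0.94 ± 0.17 above the later mean, adjusted p = 0.00526), with later log2 fold changes of 0.38 to 0.74.

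**Figure D4:**
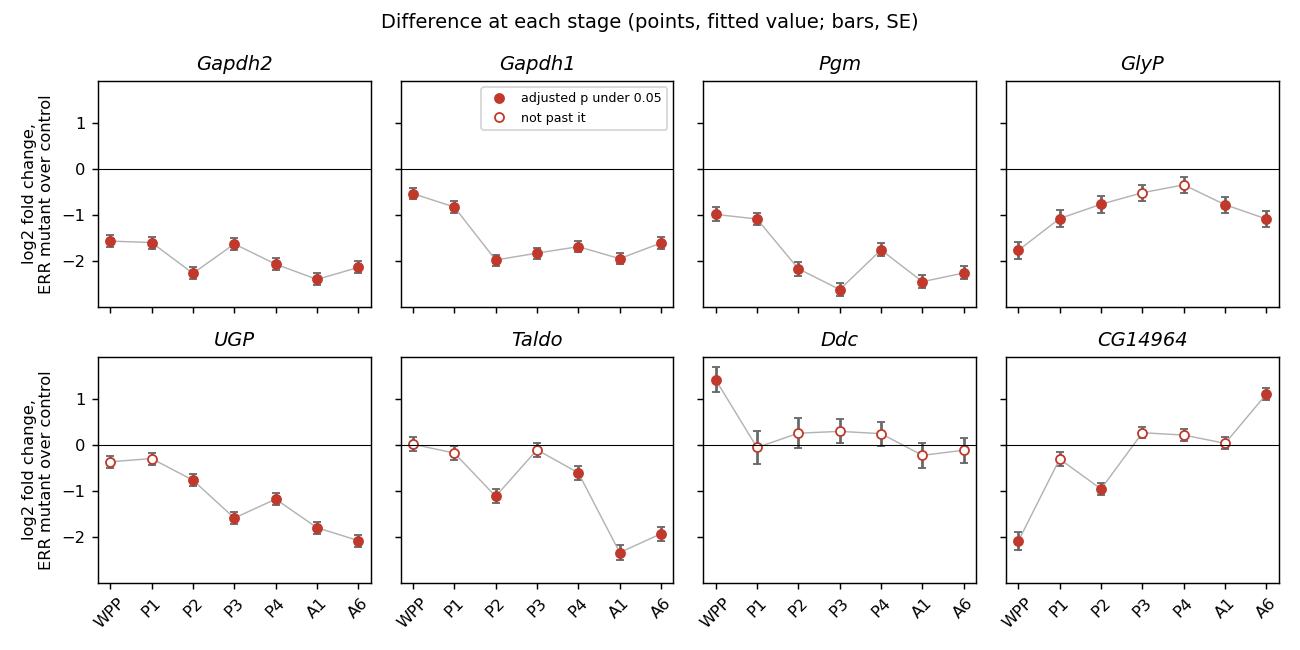
Fitted log2 fold change of ERR mutant over control at each of the 7 stages for 8 genes, with bars of 1 SE and filled points where the adjusted p lies under 0.05. Gapdh2 is lower at each stage, Gapdh1, Pgm, UGP and Taldo have smaller differences at WPP than at A1, and GlyP, Ddc and CG14964 have their largest at WPP.

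Under 13 alternative settings 8 of the 28 higher and 22 of the 61 lower genes were called each time they were tested. The lower ones included Pglym78, Tpi, Gapdh2, Pgk, Eno, Pgi, Ald, PyK and Hex-A of glycolysis and AGBE, GlyP and GlyS of glycogen metabolism. The higher ones were mthl7, GstT3, Rim2, Kmn1, CG17778, the coincident pair CG17325 and CG42305, and the noncoding lncRNA:CR44549. Not all were tested in each of the 13 settings. CG17325, CG42305, CG14964 and lncRNA:CR44185 were tested in 12, and CG12661 and lncRNA:CR44549 in 11. That last gene had 1.41, 1.37 and 1.53 CPM in mutants and 0.137, 0 and 0 CPM in controls, 27 counts against 1. Between 9 and 12 glycolysis genes and 3 or 4 glycogen genes were called under each setting.

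**Figure D5:**
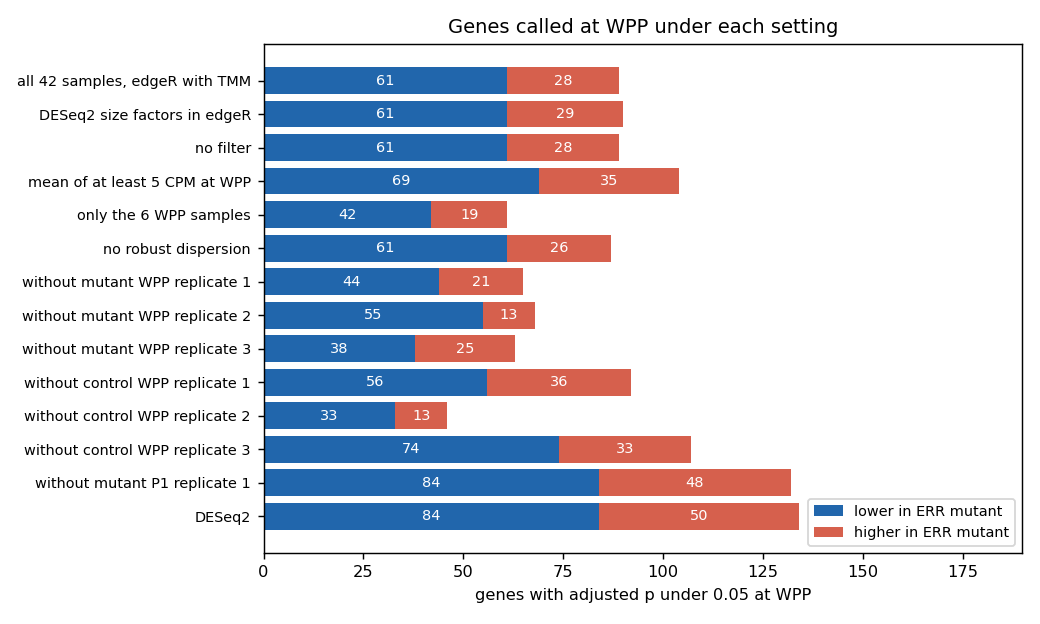
Number of genes called at WPP, lower in the ERR mutant in blue and higher in red, with all samples in 1 edgeR fit at the top and 13 alternative settings under it. The total lies between 46, without control sample 2, and 134, with DESeq2.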

How the data were processed

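RNA of whole flies was measured in 42 samples, of which 6 were WPP (3 per genotype); groups follow the genotype and time point labels. The authors deposited estimated counts per gene as whole numbers, used as they stand, and FPKM values per gene length. Per the submitters' processing notes the build was dm6 and the tools included RSEM 1.3.1, STAR 2.7.0f, DESeq2 1.22.2 and cutadapt 1.16; the sources used here do not state annotation or strand setting. Poly(A) libraries were stranded, per the labels' protocols.

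All 42 samples entered 1 fit of 14 groups in edgeR 4.0.16 (R 4.3.3; TMM, filterByExpr, robust quasi-likelihood test, Benjamini-Hochberg adjustment), leaving 13672 of 15038 genes and 28 residual degrees of freedom. Alternatives were DESeq2 1.42.0, other scalings and filters, the 6 WPP samples alone and each left out in turn; those for the stage contrast, the X and the glycogen genes were added after seeing the data. On simulated WPP counts of 13581 genes, 78% of 100 genes changed 2-fold and 97% of 100 changed 4-fold were called, with 10 wrong calls. Replicate pairs differed by 3.56 to 10.5 times the sampling noise (chi-square per gene), so none was merged. Bounds set a group without counts at 3 counts and cover counting error only. Positions came from Ensembl release 115 (BDGP6.54, dm6 coordinates; 99.4% of identifiers found).

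The members and 39 gene lists were chosen with earlier results of these data known. Named genes were ERR, called list members, the 12 largest changes each way with a mean of at least 5 CPM in a genotype and no overlap, up to 4 further members per list, and the 5 smallest p each way of the stage contrast. Other called genes were named where they describe a group. Promoter sequence was not analysed here.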

Additional observations from a re-analysis of the deposited data

Results flagged for a closer look

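For 10 genes the difference between ERR mutant and control at WPP departed from the mean difference at the 6 later stages, by the test of that contrast over 13672 genes (edgeR's quasi-likelihood test). They are the 5 with the smallest p in each direction. Gapdh1 lay 1.11 log2 units above its later mean (adjusted p = 5.6e-06). CG6834 lay 1.61 above, with a WPP log2 fold change of 0.24 and values of -1.48, -3.18, -2.04, -1.35, -0.13 and -0.07 from P1 to A6. Pgm lay 1.06, UGP 0.92 and Taldo 1.06 log2 units above. On the other side CG14964 lay at -2.14 against the later mean (adjusted p = 1.2e-07) and CG2082 at -0.57. CG34423 lay at -1.07. Its log2 fold change of -0.57 at WPP was not called (adjusted p = 0.14), and it was called lower at P2 (-0.54, adjusted p = 0.00495) and higher at P4 (0.73), A1 (0.91) and A6 (1.61). Frq2, a frequenin gene, lay at -0.93 and CG9674 at -0.54 (adjusted p = 0.00346 for both). Each of the 10 contrasts kept its direction and its call under the 12 alternatives run for it.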

How the results depend on the processing

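No paired analysis was possible because the labels give no replicate numbers. The 89 calls at WPP (28 higher, 61 lower) became 134 with DESeq2, 50 of them higher. The cause was not tested. Leaving out each WPP sample, or a mutant P1 sample that stands apart and shares the estimate of spread, gave 46 to 132 calls, 13 to 48 higher and 33 to 84 lower; the fewest came without control WPP sample 2 and the most without the P1 sample. The stage contrast passed for 45 genes, for 86 with DESeq2 and for 22 to 52 leaving out a sample. X-linked calls numbered 27, and 17 to 37 leaving out a sample. Glycolysis genes called numbered 9 to 12 and glycogen genes 3 or 4. No named difference reversed. ERR was not called in any setting; its log2 difference ranged from -0.69 to -0.43. At 1 CPM a gene rests on a few counts per sample, so the changes of Hex-C, CG12661 and lncRNA:CR44549 are imprecise.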
